A study of Mus musculus with 9 samples.

Results

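The complement and coagulation genes are 44 mouse genes for the proteins of the complement cascade, the clotting cascade, its inhibitors and the system that dissolves clots, chosen by symbol. All 44 were found in the GENCODE M1 annotation of mm9 (37310 genes), and 31 of them had a row in both result tables of the study, which list 13259 genes in common. They were measured by RNA-seq in AML12 cells, a line of mouse hepatocytes that was grown with serum, an insulin, transferrin and selenium supplement and dexamethasone. There were 9 libraries, 3 from control cells, 3 from cells with shRNA 1 and 3 from cells with shRNA 2, the hairpins being directed against *Srrm2*, a gene for a scaffold protein of nuclear speckles. The knockdown cells had carried the hairpin lentivirus for 5 days, and no day is given for the control cells. All groups are cultures of this 1 cell line, so they are models of its cells and not of liver.

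Complement and coagulation are chains of proteases that circulate as inactive precursors, and most of them are made and secreted by hepatocytes. In complement, cleavage of C3 marks surfaces for uptake and leads to a pore built from the terminal components. In coagulation, tissue factor starts a chain that ends with thrombin turning fibrinogen into fibrin, while anticoagulants hold it in check and plasmin, released from plasminogen by its activators, dissolves the clot.

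The value used from each table was the mean normalized count per gene over control libraries and libraries of 1 hairpin. That all 3 control libraries and all 3 of the hairpin entered it is an assumption. No value per library could be shown. No value per group is given, as the other 5 columns, the authors' comparison with the control, were not used. The lowest listed mean was 1.56 in the table of control and shRNA 1 and 1.92 in the table of control and shRNA 2, the medians were 147 and 151, and the means summed to 6144608 and 6393456. A gene without a row has no value here, and how low it was is unknown. With no value per library and without the authors' comparison there was no spread between replicates and no test, and the values below are descriptions. Both means of *Srrm2* (chromosome 17, 23940154 to 23961706) contain the control libraries, 3428 and 3759, so they cannot show the size of the knockdown. In RNA from whole cultures, fewer cells that express a gene and less RNA per cell cannot be told apart.

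Of the 44 genes, 21 reached a mean of 10 in each table, 10 were listed below that minimum in at least 1 table, and 13 were not listed. To compare genes, each mean was divided by the exon length of its gene and the listed genes were set to sum to 1000000, which is called the per-length level here. *C3* stood far above the rest, with a per-length level of 2124 and 2076 in the tables of shRNA 1 and shRNA 2, rank 32 and 33 of all listed genes. It was followed by *Cfi* at 306 and 295, *Plaur* at 299 and 274 and *Proc* at 225 and 218. These 4 were in the top 10% of listed genes, and 11 of the members were above the median per-length level of 25.7. *C3* made up 77.3% and 77.8% of the members' summed means. All members together held 0.385% and 0.375% of the summed means of all listed genes, and 0.0873% and 0.0830% without *C3*.

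**Figure D1:**
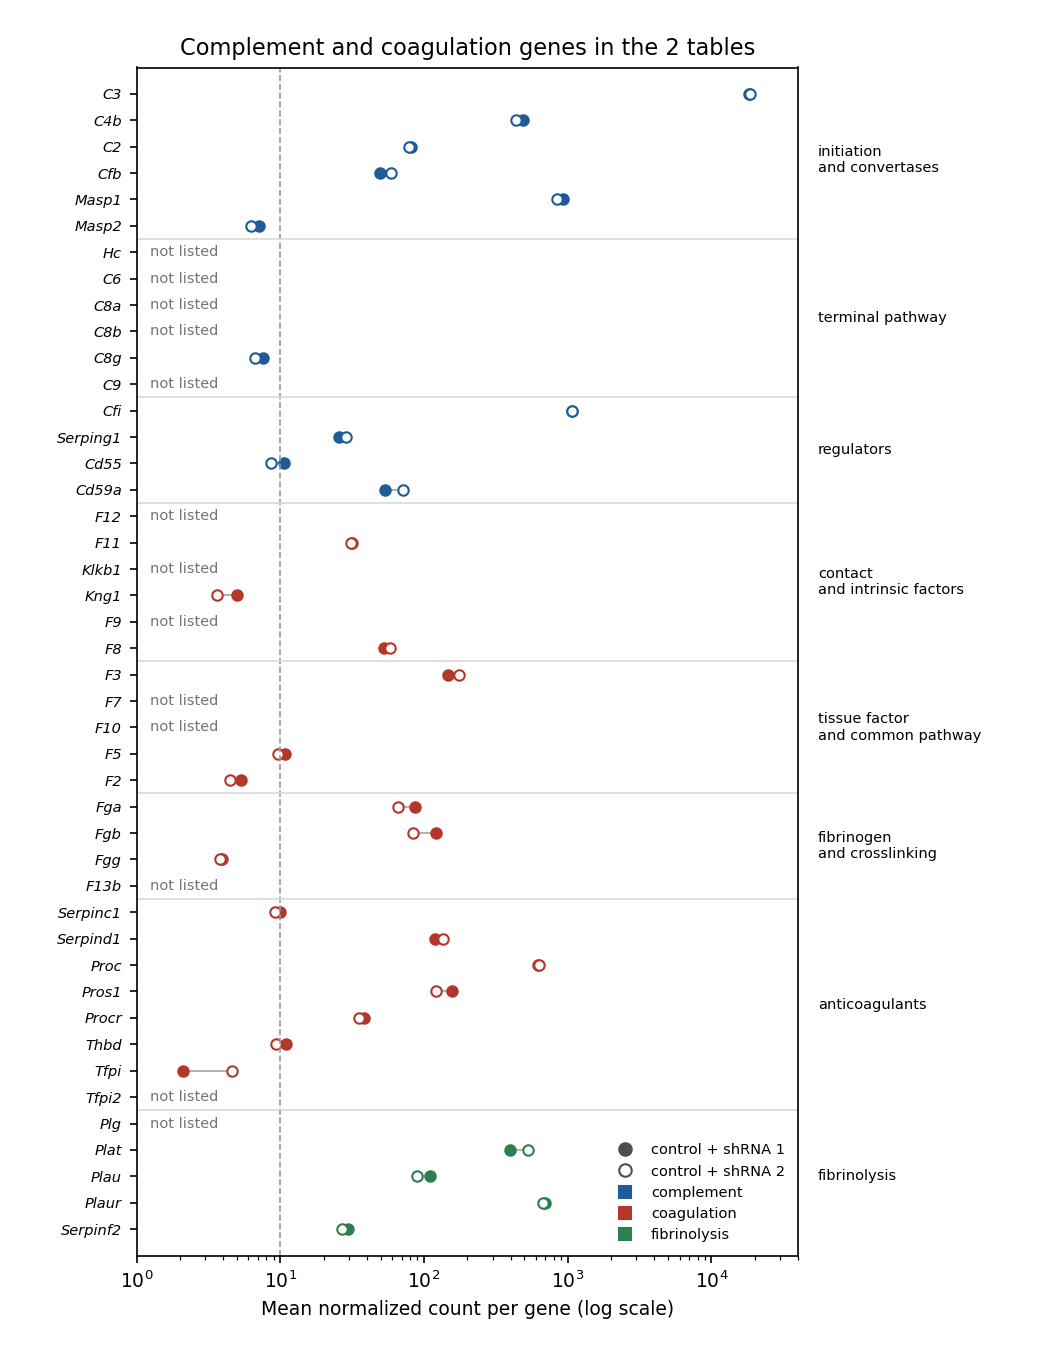
Mean normalized count (x axis, log scale) of each of the 44 genes, grouped by role, over control and shRNA 1 (filled) and over control and shRNA 2 (open), with a dashed line at the minimum of 10 and "not listed" for the 13 genes without a row. *C3* lies at 18284 and 18650, while 5 of the 6 terminal pathway genes have no row.

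The initiating proteases and convertase components of complement were all listed. *C3* (ENSMUSG00000024164.8, chromosome 17, 57343397 to 57367559), the protein on which the pathways converge, had means of 18284 and 18650. *Masp1*, a protease of the lectin pathway, had 920 and 844, whereas *Masp2*, the protease of the same pathway that cleaves C4 and C2, had 7.07 and 6.26. Per length, *Masp1* was 71.5 times as high as *Masp2* in the first table and 74.1 times in the second. The size of this ratio is uncertain, as *Masp2* had few counts and its exons overlap those of *Tardbp* on the opposite strand. *C4b*, which supplies a subunit of the classical and lectin convertase, had means of 485 and 436. Only unique pairs were retained, so reads that fit its near-identical copy *C4a* equally well would not be counted, and its level is uncertain. *C2*, the protease subunit of that convertase, had 81.8 and 79.1, and *Cfb*, its counterpart in the alternative pathway, 49.6 and 59.2. *C2* and *Cfb* lie 85 bases apart on chromosome 17 and both share exon sequence with the annotated gene *Gm20547* on the same strand, so these means too are uncertain.

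Of the terminal pathway, whose products assemble into the pore, only *C8g* was listed, with means of 7.59 and 6.68. *Hc*, the mouse gene for C5, and *C6*, *C8a*, *C8b* and *C9* had no row in either table. *C8g* codes for the lipocalin chain of C8, and the 2 genes for the pore-forming chains of the same protein, *C8a* and *C8b*, are neighbours on chromosome 4, 11130 bases apart.

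All 4 regulators of complement were listed. *Cfi* (ENSMUSG00000058952.7, chromosome 3, 129539655 to 129578246), the protease that inactivates C3b and C4b, had means of 1066 and 1072. *Serping1*, the inhibitor of the C1 proteases and of the contact system, had 25.6 and 28.9. *Cd59a*, a membrane protein that blocks the terminal pore, had 53.2 and 71.5, and *Cd55*, which speeds the decay of the convertases on the cell surface, had 10.5 and 8.61. Per length, the secreted inactivator *Cfi* was the highest of the regulators, and its level was 236 and 291 times that of *Cd55*. With so few counts for *Cd55*, the size of this ratio is uncertain.

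Among the contact and intrinsic factors of coagulation, *F8*, the cofactor of factor IX, had means of 52.8 and 58.4, and *F11*, the zymogen that activates factor IX, 31.7 and 31.0. *Kng1*, the kininogen that carries prekallikrein and factor XI, had 4.99 and 3.62. Reads that fit its copy *Kng2* equally well would not be counted. *F12*, *Klkb1* and *F9*, the zymogens of factor XII, prekallikrein and factor IX, were not listed. *F11* was thus listed and *Klkb1*, its neighbour 7410 bases away on chromosome 8, was not. Exons of *Klkb1* overlap those of *Cyp4v3* on the same strand, so this contrast is uncertain.

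*F3* (ENSMUSG00000028128.8, chromosome 3, 121426455 to 121437970), tissue factor and the trigger of clotting outside the vessel, had means of 147 and 174 and a per-length level of 46.8 and 52.9. The other genes grouped with it here, those of factor VII and of the common pathway up to thrombin, were low or had no row. *F2*, prothrombin, had 5.36 and 4.50, *F5*, the cofactor in prothrombin activation, 10.8 and 9.68 (per-length levels of 0.70 and 0.56 for *F2* and 0.87 and 0.74 for *F5*), and *F7* and *F10*, 1498 bases apart on chromosome 8, were not listed.

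The 3 fibrinogen chains are encoded side by side and are needed in equal numbers in the finished protein, but their RNAs were at unequal levels. On chromosome 3 of mm9, *Fgg* (gamma chain, 82811781 to 82818975, + strand), *Fga* (alpha chain, 82830075 to 82838036, + strand) and *Fgb* (beta chain, 82846169 to 82853725, - strand) follow each other with 11099 and 8132 bases between them. *Fgb* had means of 122 and 84.3, *Fga* 87.2 and 65.6, and *Fgg* 3.96 and 3.82. Per length, *Fgb* was 36.8 and 26.4 times as high as *Fgg* in the tables of shRNA 1 and shRNA 2, and *Fga* 14.8 and 11.5 times, while *Fgb* was 2.49 and 2.29 times as high as *Fga*. In each table the RNA for the gamma chain was thus far below both others. Because the means of *Fgg* were below the minimum, the size of the ratios to it is uncertain. *F13b*, the carrier subunit of the crosslinking factor XIII, was not listed.

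The upstream sequences of the fibrinogen genes are shown because these neighbours differed widely in level and because *Fgb* and *Fga*, of the members at the minimum, had the lowest ratios between hairpins. Each run is the 250 bases before the RefSeq start on GRCm38.p6, a later build than mm9, read 5′ to 3′ on the strand of the gene, and capitals mark motif matches on either strand. *Fgg* is chr3:83007474-83007723 on the + strand, *Fga* chr3:83025903-83026152 on the + strand and *Fgb* chr3:83049864-83050113 on the - strand.
Fgg: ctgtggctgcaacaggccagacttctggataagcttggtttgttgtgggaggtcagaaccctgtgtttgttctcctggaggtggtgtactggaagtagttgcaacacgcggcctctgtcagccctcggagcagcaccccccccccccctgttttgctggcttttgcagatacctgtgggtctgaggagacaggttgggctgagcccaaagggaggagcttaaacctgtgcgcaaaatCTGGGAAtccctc
Fga: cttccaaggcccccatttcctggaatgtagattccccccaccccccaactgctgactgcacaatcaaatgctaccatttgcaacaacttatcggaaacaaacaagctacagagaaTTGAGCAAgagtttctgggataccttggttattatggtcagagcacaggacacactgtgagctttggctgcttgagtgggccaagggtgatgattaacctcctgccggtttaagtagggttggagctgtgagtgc
Fgb: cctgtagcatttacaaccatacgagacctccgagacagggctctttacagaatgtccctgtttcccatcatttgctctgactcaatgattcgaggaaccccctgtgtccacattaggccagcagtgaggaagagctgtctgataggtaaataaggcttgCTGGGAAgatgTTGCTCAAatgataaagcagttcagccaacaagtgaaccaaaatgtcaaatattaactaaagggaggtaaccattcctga
The letters searched on both strands were CTGGGAA, the interleukin-6 response element of acute-phase genes, TTGCNNAA, a core bound by C/EBP factors, and TATAAA, the TATA box. Positions count from the RefSeq start, which need not be the start of the gene model that was counted. CTGGGAA lay at -13 to -7 in *Fgg* and at -91 to -85 in *Fgb*. TTGCNNAA lay at -135 to -128 in *Fga*, on the opposite strand, and at -80 to -73 in *Fgb*. None of the 3 windows held TATAAA.

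RefSeq promoters matched 32 of the 44 members, with 36 promoters. A member was counted if any of its promoters held the letters, while the shares over all count each promoter, so the numbers are not in like units. CTGGGAA was in the windows of 6 members (*F9*, *Fgb*, *Fgg*, *Masp2*, *Tfpi* and *Tfpi2*) and in 9.10% of 32851 promoters of the same length. TTGCNNAA was in those of 9 members (*C3*, *C9*, *F11*, *F9*, *Fga*, *Fgb*, *Klkb1*, *Plaur* and *Procr*) against 9.56% of all promoters, and TATAAA in those of 3 (*Hc*, *Klkb1* and *Tfpi*) against 12.4%. A match is a description of the sequence only.

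Of the 8 anticoagulants, 7 were listed. *Proc*, the zymogen of protein C, which inactivates factors V and VIII, had means of 621 and 628, and its cofactor *Pros1* 156 and 122. *Procr*, the receptor that presents protein C for activation, had 38.5 and 35.3, and *Thbd*, thrombomodulin, which turns thrombin towards protein C, 11.03 and 9.31. *Serpind1*, heparin cofactor II, a thrombin inhibitor, had 119 and 136, and *Serpinc1*, antithrombin, 9.97 and 9.17, which are per-length levels of 32.3 and 35.4 against 2.76 and 2.43. *Tfpi*, the inhibitor of the tissue factor complex, had 2.11 and 4.59 and, at 0.23 and 0.48, the lowest per-length level of the listed members, and *Tfpi2* was not listed. Antithrombin, the main plasma inhibitor of thrombin, was thus below the minimum, while *Proc*, at a per-length level of 225, was in the top 10% of genes.

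In fibrinolysis the activators of plasminogen and their receptor were listed and plasminogen was not. *Plaur*, the urokinase receptor, had means of 700 and 671, *Plat*, tissue plasminogen activator, 397 and 531, and *Plau*, urokinase, 110 and 89.2. *Serpinf2*, the inhibitor of plasmin, had 29.8 and 26.7. *Plg*, the gene for plasminogen, had no row. Per length, the receptor was 10.6 and 12.6 times as high as urokinase and 3.19 and 2.29 times as high as tissue plasminogen activator.

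Of the 44 genes, 14 are widely expressed outside hepatocytes (among them *F3*, *Plat*, *Plau*, *Plaur*, *Cd59a* and *F8*), and 13 of these were listed and 9 reached the minimum. Of the other 30, 18 were listed and 12 reached it. The line still carried hepatocyte markers, with all 8 of them (*Alb*, *Ttr*, *Apoa1*, *Apob*, *Hnf4a*, *Krt8* and *Krt18* among them) listed at means from 39.4 to 20192 in the table of shRNA 1. Of 7 endothelial markers only *Vwf* was listed, at 2.45 and 7.16, and *Pecam1*, *Cdh5*, *Kdr*, *Tek*, *Tie1* and *Stab2* were not. Of 6 macrophage markers 4 were listed, summing to 547 and 589, of which *Cd14* made up 490 and 526, and the Kupffer cell genes *Emr1* and *Clec4f* were not. Of 6 stellate cell and fibroblast markers 2 were listed, summing to 11.9 and 9.66. Of 4 megakaryocyte markers only *Itga2b* was listed, at 32.8 and 22.1. The part of such cells in the members' values was not tested.

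The means also order the hairpins. If the same 3 control libraries entered both tables, the mean of the first is the average of control and shRNA 1 and that of the second the average of control and shRNA 2, so their difference has the sign of shRNA 2 minus shRNA 1. That sharing is an assumption, because the labels of 2 control libraries name tables of further hairpins. The tables were normalized separately, and the second was divided by 1.05, the median ratio over the 7757 genes that reached a mean of 100 in each. Since the control mean cannot be below 0, the ratio of the scaled means estimates the least fold by which the hairpin groups differed, and this estimate moves with counting error and with the scaling. The errors given are 95% margins from counting alone, at their upper limit, and leave out the spread between replicates. How either hairpin differed from the control does not follow from these means.

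Here and below, lower or higher with shRNA 2 holds only if the control libraries were shared. A limit was set at a ratio of 5 to 4 either way, a log2 ratio of -0.32 or 0.32. Past it, 4 of the 21 members at the minimum were lower with shRNA 2 than with shRNA 1 (*Fgb*, *Fga*, *Pros1* and *Plau*), 2 were higher (*Cd59a* and *Plat*) and 15 were between. That is 19.0% lower and 9.52% higher, against 4.28% lower and 4.02% higher of all 11451 genes at the same minimum. The list, minimum and limit were chosen with earlier results of these data known, so this contrast is a description only. Counting error lay wholly past the limit for *Fgb*, and it crossed the limit for *Fga*, *Pros1*, *Plau*, *Cd59a* and *Plat*. Without scaling the tables to each other, 2.57% of all genes were lower and 6.87% higher, and 3 and 2 of the members. Of the 3386 genes with both means between 50 and 200, where 9 members fall, 4.40% were lower and 3.01% higher, against 4 and 1 of the members. This range holds all 4 lower members and leaves out more abundant ones such as *C3* and *Cfi*, so this too is a description only. The members' median log2 ratio was -0.10 (quartiles -0.22 and 0.11), with 14 below 0 and 7 above, and the median over all genes was 0.00 (quartiles -0.10 and 0.10). Differences exceeded counting error in 12 of the 21 members, 9 lower and 3 higher, and in 42.8% of all genes, so passing it is common. The complement genes had 0 lower and 1 higher of 8, with a median log2 ratio of -0.05, and the coagulation and fibrinolysis genes 4 lower and 1 higher of 13, with a median of -0.13.

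**Figure D2:**
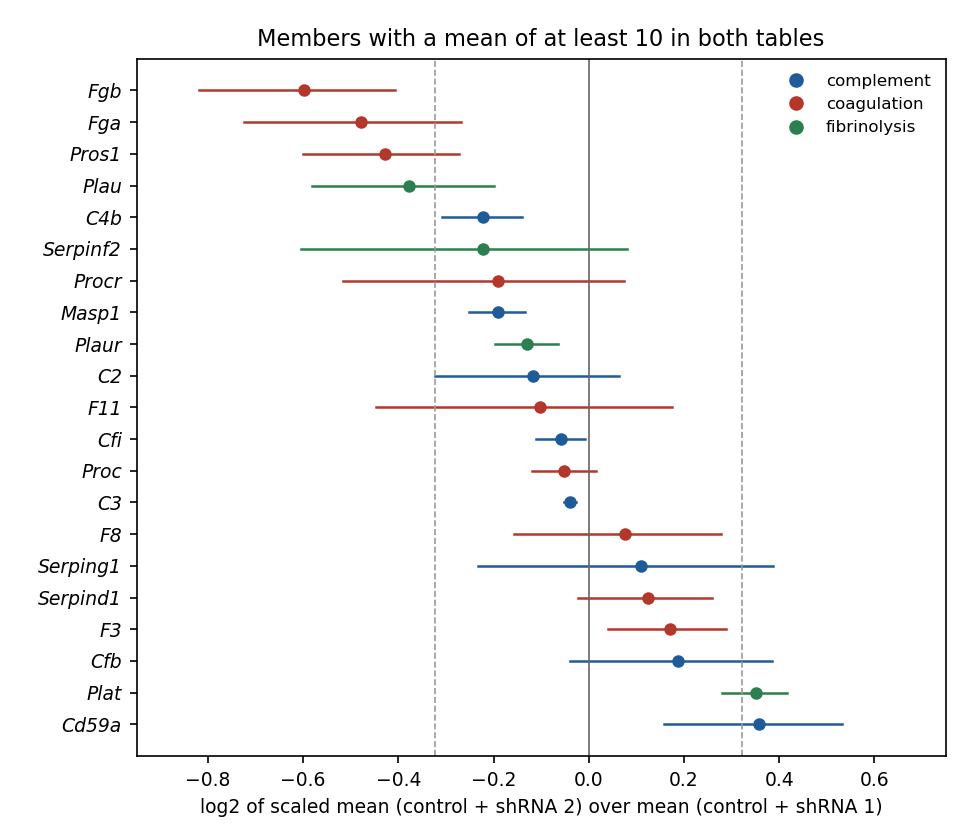
Log2 ratio of the scaled mean over control and shRNA 2 to the mean over control and shRNA 1 for the 21 members that reached the minimum, in order. Lines span the 95% counting error and dashed lines mark a ratio of 5 to 4 either way. *Fgb* is lowest at -0.60 and *Cd59a* highest at 0.36.

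*Fgb* differed most. Its log2 ratio was -0.60 (counting error -0.82 to -0.41), which is an estimated least fold of 1.51, and shRNA 2 minus shRNA 1 was -82.6 ± 22.8 normalized counts. *Fga* was next, with a log2 ratio of -0.48, an estimated least fold of 1.39 and a difference of -49.2 ± 19.6. If the control libraries were shared, *Fgb* and *Fga* were thus lower with shRNA 2, by counting error alone. The log2 ratio of the third chain, *Fgg*, was -0.12 at means below 10, with a counting error of -1.46 to 0.56 that covers the values of both its neighbours.

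Under the same assumption, *Pros1* and *Plau* were lower with shRNA 2 as well. The protein C cofactor *Pros1* (chromosome 16, 62854133 to 62929172) had a log2 ratio of -0.43, an estimated least fold of 1.34 and a difference of -79.9 ± 26.4 normalized counts. Its partner *Proc* had a log2 ratio of -0.05, and the difference of -43.1 ± 55.9 was within counting error. *Plau* (chromosome 14, 21655884 to 21662610) had a log2 ratio of -0.38, an estimated least fold of 1.30 and a difference of -50.8 ± 22.4. With the tables not scaled to each other its log2 ratio was -0.31, not past the limit.

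Under that assumption of shared controls, *Plat* and *Cd59a* were higher with shRNA 2. *Plat* (chromosome 8, 23868216 to 23893319) had a log2 ratio of 0.35, an estimated least fold of 1.27 and the largest difference of the 6 genes past the limit, 218 ± 48.1 normalized counts. The plasminogen activators *Plat* and *Plau* therefore were past the limit in opposite directions, and their receptor *Plaur* was between, with a log2 ratio of -0.13 and a difference of -120 ± 58.6. *Cd59a* (chromosome 2, 103935958 to 103955511) had a log2 ratio of 0.36, an estimated least fold of 1.28 and a difference of 29.9 ± 17.6. Reads that fit its copy *Cd59b* equally well would not be counted. *Tfpi*, at 2.11 and 4.59, was below the minimum and was not read in this way, and the endothelial marker *Vwf*, at 2.45 and 7.16, was also below it.

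**Figure D3:**
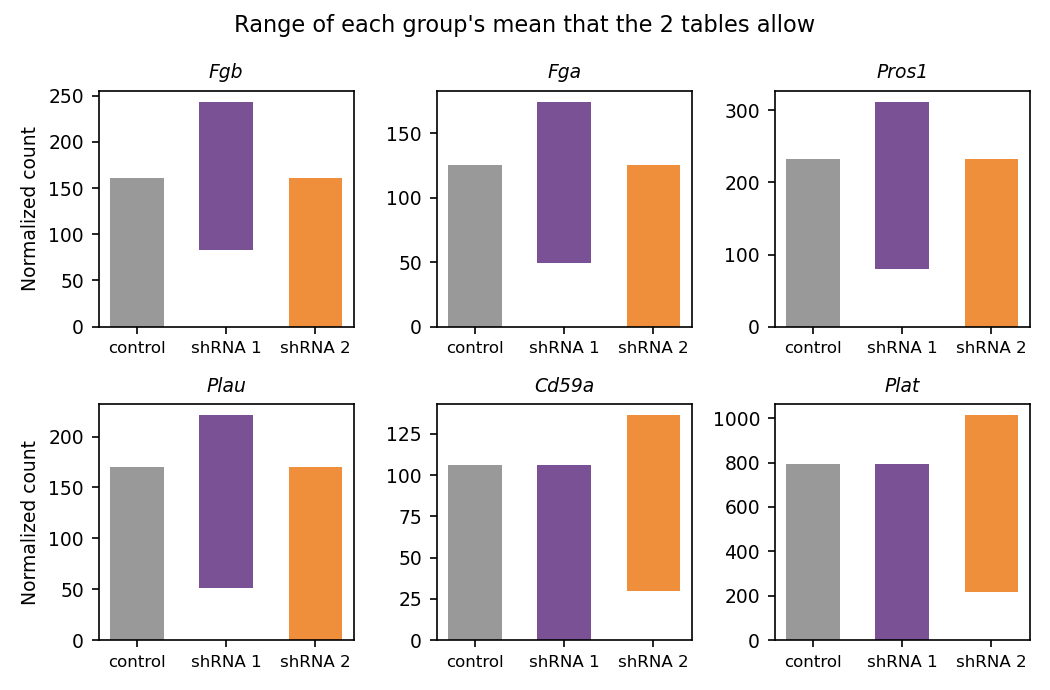
Range of the mean normalized count that both tables allow in control, shRNA 1 and shRNA 2 cells for the 6 genes past the ratio of 5 to 4 (y axes start at 0 and differ between panels). The ranges assume that both tables share their control libraries and leave out counting error and the spread between replicates. Under that assumption *Fgb* lay between 82.6 and 243.6 with shRNA 1 and up to 160.9 with shRNA 2 or in control cells. The ranges of the groups overlap and give at most the order of the hairpins.

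The ranges that the means allow stay wide for these genes. They hold only if the control libraries were shared, take the scaling as exact and leave out counting error and the spread between replicates. *Fgb* was between 82.6 and 243.6 normalized counts with shRNA 1 and at most 160.9 with shRNA 2. *Pros1* was between 79.9 and 312.0 with shRNA 1 and at most 232.1 with shRNA 2. *Plat* was at most 794.5 with shRNA 1 and between 218 and 1013 with shRNA 2. In each of these genes the control could lie anywhere from 0 to the upper value of the lower hairpin.

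Nearest to the limit, the ratio was 0.770 in *Plau* and 1.27 in *Plat*, which were past it, and 0.857 in *C4b* and 1.14 in *Cfb*, which were not. Several abundant complement genes differed beyond counting error by small ratios. *C3* had a log2 ratio of -0.04 and a difference of -987 ± 304 normalized counts, *Masp1* -0.19 and -229 ± 66.5, *C4b* -0.22 and -138 ± 48.0 and *Cfi* -0.06 and -85.7 ± 73.1. *F3* had a log2 ratio of 0.17 and a difference of 36.9 ± 28.3. The log2 ratios of *C2* (-0.12), *Cfb* (0.19), *Serping1* (0.11), *F8* (0.08), *F11* (-0.10), *Serpind1* (0.13), *Procr* (-0.19) and *Serpinf2* (-0.22) had counting errors that include 0.

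**Figure D4:**
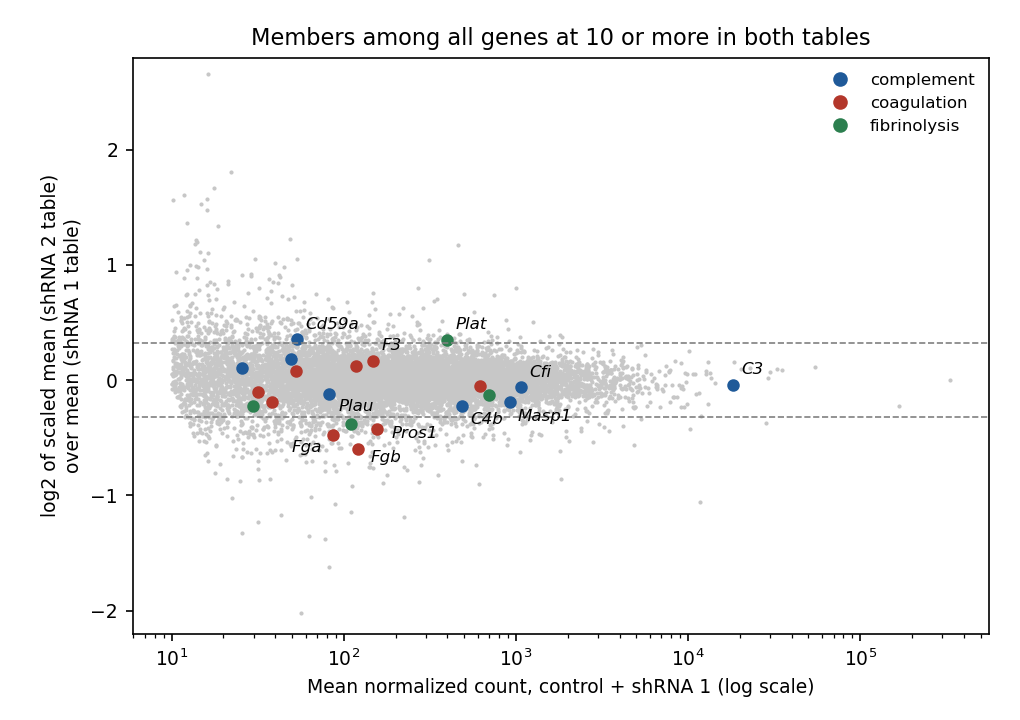
Log2 ratio of the scaled means of both tables (y axis) against the mean over control and shRNA 1 (x axis, log scale) for 11451 genes (grey) and the 21 members (coloured), with dashed lines at a ratio of 5 to 4. The 4 members below the lower line have means from 87.2 to 156, and *C3*, at 18284, lies close to 0.

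Of 65 further complement, coagulation and kinin genes in the annotation, 38 were listed in both tables and 31 reached the minimum. By the same ratio 5 were lower with shRNA 2, 3 were higher and 23 were between, with a median log2 ratio of -0.13, beside 4.28% lower and 4.02% higher of all genes. *C4bp*, a plasma inhibitor of the classical convertase, had means of 354 and 210, a log2 ratio of -0.82, an estimated least fold of 1.77 and a difference of -307 ± 37.7 normalized counts, beyond that of any member at the minimum in ratio. *Cfhr2* had 16.4 and 10.6 and a log2 ratio of -0.70. *Pzp*, a broad protease inhibitor, had 126 and 97.7 and a log2 ratio of -0.44, and *Lman1*, which carries factors V and VIII out of the endoplasmic reticulum, 720 and 580 and -0.38. Of the complement inhibitors, *C4bp* was thus lower with shRNA 2 and *Cd59a* higher. These single genes do not show how soluble or membrane inhibitors differed as classes.

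The 3 higher genes were *Kng2*, a kininogen, with means of 16.3 and 25.1 and a log2 ratio of 0.56, and the antitrypsins *Serpina1c* (67.1 and 92.3, 0.39) and *Serpina1a* (316 and 426, 0.36). The *Serpina1* copies are nearly identical, so reads that fit more than 1 of them would not be counted, and their levels are uncertain. The highest per-length levels on this list were those of *Clu*, an inhibitor of the terminal pore, with 5666 and 6096, *Anxa5*, a phospholipid-binding anticoagulant, with 1184 and 1107, and *Anxa2*, a surface binding site for plasminogen and its activator, with 767 and 656. *Clu* was thus more abundant per length than *C3*.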

How the data were processed

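RNA-seq of 3 control, 3 shRNA 1 and 3 shRNA 2 libraries of AML12 cells was used. Per the labels and the study methods, the authors aligned reads with TopHat2 to mm9, retained unique pairs, used HTSeq to count them per GENCODE M1 gene, and normalized with DESeq2 (version 1.8.2, defaults). Strand-specific polyA libraries are described, but a total RNA kit is named and the labels give total RNA. Exons of 7 members overlap those of other genes, which leaves their counts uncertain. Where the overlap is on the opposite strand, this depends on whether HTSeq used strand, which the sources used here do not give. The signal deposited by the authors and used here is the mean normalized count per gene over control and 1 hairpin, that is, counts divided by size factors and averaged. The other 5 columns of each deposited table hold the authors' own comparison with the control (fold change, standard error, test statistic, p-value and adjusted p-value) and were not used, so this report has no fold change against control, no p-value and no replicate error. Depth per library is unknown, and intervals cover counting error only, with size factors taken as near 1.

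The members, lists, minimum of 10 and ratio of 5 to 4 were chosen with earlier results of these data known. Named genes are all members, other pathway genes past the ratio (at most 6 each way) and the 3 most abundant of them per length. Of the genes these rules pick, 1 is not reported here. Exon lengths came from the GENCODE M1 exon union on NCBIM37, and promoters from RefSeq on GRCm38.p6. Alternatives were other ratios, minima, scalings and lengths. Python 3.11.15, numpy 2.4.6, pandas 2.3.3 and matplotlib 3.10.9 were used.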

Additional observations from a re-analysis of the deposited data

How the results depend on the processing

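No paired analysis was possible because the tables hold no value per library, and for the same reason no replicate could be left out. A ratio of 1.1 gave 8 of 21 members lower and 4 higher with shRNA 2 (17.5% and 18.4% of all genes), and a ratio of 1.5 gave 1 lower (*Fgb*) and 0 higher (0.72% and 0.86% of all genes). A minimum mean of 100 left 10 members, with 1 lower and 1 higher (2.55% and 1.65% of 7757 genes). The members' share of the summed means was 0.407% without the most abundant gene and 0.375% in the table of shRNA 2, against 0.385%. Without division by length 2 members, not 4, were in the top 10%. With no minimum, a minimum of 50, scaling by summed means or no scaling, 3 to 6 members were lower and 2 or 3 higher, and the median log2 ratio, recomputed with no minimum, a minimum of 100 and both other scalings, was from -0.19 to -0.03. Leaving out the scaling moved all log2 ratios by 0.07 and scaling by sums by 0.01. Scaling by sums or not at all, tried after seeing the data for the 6 genes past the limit, left each on the same side of 0, and *Plau* without scaling (-0.31) was not past the limit. The 10 listed members below the minimum had too few counts for their ratios to be read.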
